A study of Mus musculus with 82 samples.

Results

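The regions described here are stretches of accessible chromatin that were listed on day 3 of reprogramming in Flag cells and in none of the other ATAC-seq peak lists. The 4 lists were merged into 55272 union regions, and those that overlapped a Flag day 3 peak but no peak of the other 3 lists were kept. There were 4010 such regions, which is 7.26% of all union regions and 11.2% of the 35879 regions present in the Flag day 3 list (95% Wilson interval 10.9 to 11.5%). The regions were chosen by presence and absence in the 4 lists, so their absence elsewhere is their definition and not a result.

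The series, a study of reprogramming of mouse cells toward pluripotency, holds 82 samples of several assays, and its 8 ATAC-seq samples are used here. The starting cells were OG2-MEFs, embryonic fibroblasts that received Oct4, Sox2, Klf4 and c-Myc from retroviruses packaged in Plat-E cells. The 4 ATAC-seq groups, each with 2 replicates in the labels, were Flag at day 3, RNase H1(D209N) at day 3, Flag at day 7 and RNase H1(D209N) at day 7, all on top of OSKM. Flag is read here as the control, and the factors and the added protein reach only the infected cells, so each list describes a mixed culture. Each group had 1 peak list with positions and no height, score or read count. There was therefore no replicate spread, no p-value could be given, and depth is unknown. Wilson intervals cover counting error only, and neighbouring regions share 1 list and are not replicates of a condition. A region that a list lacks may still have been accessible below that list's calling threshold.

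ATAC-seq inserts adapters into open DNA with a transposase, and its peaks mark promoters, enhancers and other bound sites. Promoters with many CpG dinucleotides tend to be open in most cell types, while distal sites are more particular to a cell type or stage. Early in OSKM reprogramming, fibroblast enhancers lose accessibility while the delivered factors engage many sites in closed chromatin, some of them transiently. RNase H1 removes the RNA strand of RNA:DNA hybrids, the core of R-loops, and the D209N form is a catalytic mutant.

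One region lay beside the miR-302/367 cluster, whose microRNAs are known for high expression in pluripotent stem cells. It was singled out after its position was seen. The region, chr3:127544801-127544946 (146 bp), ended 281 bp before the Mir302b hairpin and 786 bp before the Mir367 hairpin, on the plus strand of the cluster. It was the only union region of any list within 5 kb of the cluster, and the next peak of another list, in RNase H1(D209N) day 3, was 7.98 kb away. The 3p microRNAs listed for the cluster are shown, and miR-302a-3p was not among the listed sequences. Capitals mark the seed, bases 2 to 8, and the sequences are RefSeq's for GRCm38.p6.
mmu-miR-302b-3p: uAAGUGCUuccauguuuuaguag
mmu-miR-302d-3p: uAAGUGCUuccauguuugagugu
mmu-miR-302c-3p: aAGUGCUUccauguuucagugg
mmu-miR-367-3p: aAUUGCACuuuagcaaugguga
miR-302b-3p and miR-302d-3p share the seed AAGUGCU. The listed miR-302c-3p has the seed AGUGCUU, and miR-367-3p has a seed of its own. In all, 7 of 1005 microRNA hairpins (0.697%) lay within 1 kb of a region listed in Flag day 3 alone, through 3 regions. For comparison, 153 hairpins lay within 1 kb of any Flag day 3 region and 194 within 1 kb of any union region. Of the 7, 5 were the cluster itself. The other two were Mir149 on chromosome 1 and Mir7091 on the X chromosome.

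Few of the regions touched a promoter. Of 32851 RefSeq promoter windows, each running from 250 bases before to 50 bases after a start site, 72 (0.219%) shared at least 1 bp with one, through 65 regions and 68 genes. Of these genes, 38 were protein-coding and 30 were lncRNA genes. The 6 windows below, all read 5′ to 3′ on the strand of the gene, were chosen after their values were seen to show the kinds of promoter touched. Gm51018 is the lncRNA gene that starts beside the miR-302/367 cluster, and Platr8 is a lncRNA gene named for a pluripotency-associated transcript. Il33 encodes an alarm cytokine, Sptlc3 a subunit of the enzyme that starts sphingolipid synthesis, and Ifit3 and Tgtp2 are interferon-induced genes with near-identical copies nearby, between which reads may have been split. Capitals mark the bases under the Flag day 3 peak (RefSeq, GRCm38.p6).
Gm51018 promoter, chr3:127544839-127545138, plus strand: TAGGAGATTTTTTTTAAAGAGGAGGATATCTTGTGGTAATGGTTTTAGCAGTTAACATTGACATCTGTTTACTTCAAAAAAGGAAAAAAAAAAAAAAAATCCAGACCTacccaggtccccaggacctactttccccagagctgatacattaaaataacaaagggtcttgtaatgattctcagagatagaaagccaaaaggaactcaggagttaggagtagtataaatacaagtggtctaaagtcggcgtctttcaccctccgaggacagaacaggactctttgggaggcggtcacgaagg
Platr8 promoter, chr2:109913270-109913569, minus strand: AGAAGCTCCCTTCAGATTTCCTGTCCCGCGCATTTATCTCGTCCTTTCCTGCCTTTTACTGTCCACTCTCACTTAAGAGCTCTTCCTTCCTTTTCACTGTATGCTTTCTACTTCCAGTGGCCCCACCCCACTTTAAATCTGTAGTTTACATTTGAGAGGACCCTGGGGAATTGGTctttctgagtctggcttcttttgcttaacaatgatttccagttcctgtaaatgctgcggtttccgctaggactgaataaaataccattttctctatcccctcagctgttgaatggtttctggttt
Il33 promoter, chr19:29945540-29945839, plus strand: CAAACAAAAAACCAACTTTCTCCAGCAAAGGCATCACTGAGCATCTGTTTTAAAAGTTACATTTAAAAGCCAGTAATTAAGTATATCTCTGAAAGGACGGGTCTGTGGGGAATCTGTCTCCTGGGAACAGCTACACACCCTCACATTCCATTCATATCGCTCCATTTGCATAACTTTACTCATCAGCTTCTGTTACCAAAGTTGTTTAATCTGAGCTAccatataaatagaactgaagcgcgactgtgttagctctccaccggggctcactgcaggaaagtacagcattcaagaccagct
Sptlc3 promoter, chr2:139493663-139493962, plus strand: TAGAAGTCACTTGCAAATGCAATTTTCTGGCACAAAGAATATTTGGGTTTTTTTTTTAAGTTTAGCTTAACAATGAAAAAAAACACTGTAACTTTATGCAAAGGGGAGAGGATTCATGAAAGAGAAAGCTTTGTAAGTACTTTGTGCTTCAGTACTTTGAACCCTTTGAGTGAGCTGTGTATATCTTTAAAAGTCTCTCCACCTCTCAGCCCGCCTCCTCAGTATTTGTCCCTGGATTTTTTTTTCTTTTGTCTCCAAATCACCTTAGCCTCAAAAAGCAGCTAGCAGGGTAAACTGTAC
Ifit3 promoter, chr19:34583279-34583578, plus strand: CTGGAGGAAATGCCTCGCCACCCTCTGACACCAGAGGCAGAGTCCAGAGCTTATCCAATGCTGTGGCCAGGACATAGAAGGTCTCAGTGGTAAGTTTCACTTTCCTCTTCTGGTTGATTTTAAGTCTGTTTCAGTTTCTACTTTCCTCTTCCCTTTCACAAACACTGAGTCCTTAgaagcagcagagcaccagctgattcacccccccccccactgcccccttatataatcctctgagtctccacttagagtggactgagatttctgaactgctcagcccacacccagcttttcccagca
Tgtp2 promoter, chr11:49064163-49064462, minus strand: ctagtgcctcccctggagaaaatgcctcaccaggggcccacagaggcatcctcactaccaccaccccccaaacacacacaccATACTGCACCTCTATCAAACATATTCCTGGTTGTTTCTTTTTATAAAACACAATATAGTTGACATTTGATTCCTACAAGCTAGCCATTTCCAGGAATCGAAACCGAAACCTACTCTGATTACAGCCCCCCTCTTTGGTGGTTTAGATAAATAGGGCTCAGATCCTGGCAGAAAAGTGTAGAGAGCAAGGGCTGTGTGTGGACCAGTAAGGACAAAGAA
The Flag day 3 peak covered all 300 bases of the Sptlc3 window, 218 bases of the Il33 and Tgtp2 windows, 175 bases of the Ifit3 and Platr8 windows and 108 bases of the Gm51018 window. The nearest peak of another list was 72.1 kb away at Sptlc3, 23.9 kb at Ifit3, 5.9 kb at Tgtp2, 3.69 kb at Platr8 and 2.36 kb at Il33.

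The touched promoters held fewer CpG than those open in every list. Their windows held a median of 5 CpG dinucleotides (quartiles 3 and 8.25), against 7 over all promoter windows, 22 over windows touched by regions of all 4 lists and 11 over windows touched by regions in Flag day 7 alone. The share of windows with 5 or fewer CpG was 54.2% (39 of 72, interval 42.7 to 65.2%), against 43.6% of all windows, which lies inside that interval, and 3.91% of windows touched by regions of all 4 lists. The windows touched by regions in RNase H1(D209N) day 3 alone had the same median of 5 CpG over 19 windows (63.2% with 5 or fewer), and those of both day 3 lists only had a median of 2 CpG over 30 windows. The 72 windows thus lay nearer to promoters at large than to the CpG-rich promoters touched in every list.

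**Figure D1:**
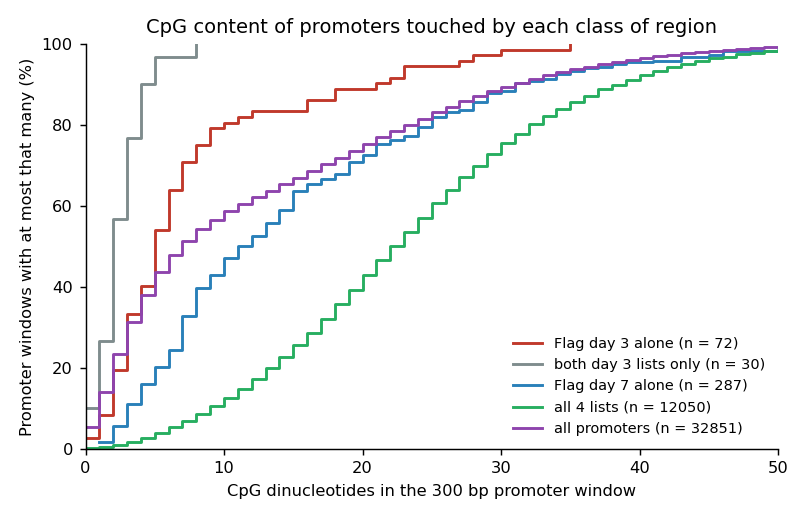
Cumulative share of 300 bp promoter windows (vertical axis, %) by number of CpG dinucleotides (horizontal axis), one line per class of region that touched the window. The line for Flag day 3 alone (median 5) lies left of the lines for Flag day 7 alone (median 11) and for all 4 lists (median 22), and right of the line for both day 3 lists only (median 2).

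Short motifs were counted on both strands of the same windows, as letters only, and a match is not a bound site. GGGCGG, the core bound by SP factors, stood in 26.4% of the 72 windows (interval 17.6 to 37.6%), against 69.4% of windows touched by regions of all 4 lists and 35.7% of all windows. TGANTCA, the AP-1 motif, stood in 12.5% of the 72 (6.72 to 22.1%), against 43.3% of the 30 windows of both day 3 lists only, 13.2% of the windows of Flag day 7 alone and 7.81% of all windows. The core of the interferon response element (GAAA, any 2 bases, then GAAA) stood in 8.33% (6 of 72, 3.88 to 17%), against 3.44% of all windows. The 6 genes with it were Gm12185, Tgtp2, Ifit3, Sptlc3, A730049H05Rik and Rbms3. In the sequences above, the Ifit3 peak covered this element as TTTCACTTTC and TTTCAGTTTC, read on the opposite strand, and the Tgtp2 peak covered it as GAAACCGAAA. ATGCNAAT, a POU motif of the kind Oct4 binds, stood in 5.56% (4 of 72, 2.18 to 13.4%), against 3.15% of all windows, and the Il33 peak covered it as ATTTGCAT on the opposite strand. The other motifs were also counted: GGGNGTGG for KLF factors in 25% of the 72 windows against 17.6% of all windows, CCAAT for NF-Y in 31.9% against 37.4%, TATAAA in 9.72% against 13.6% and GGAATG for TEAD factors in 15.3% against 14.7%. For 7 of the 8 motifs, all but the interferon element, the interval of the 72 windows held the value of all windows. The interferon element rested on 6 windows, and nothing is concluded from 1 departure among 8 motifs. It stood in 6.67% of the 30 windows of both day 3 lists only (1.85 to 21.3%), and ATGCNAAT in 10% (3.46 to 25.6%). At Rbms3 the region shared only 24 bp with the window and lay 0.018 kb from another list's peak. Gm12185 and Tgtp2 lie in the same stretch of chromosome 11.

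The regions were narrow. The Flag day 3 peak had a median width of 271 bp (quartiles 222 and 344 bp), against 398 bp for regions of both day 3 lists only, 308 bp for regions of all lists but RNase H1(D209N) day 3 and 617 bp for regions of all 4 lists. Widths ran from 2 to 1198 bp; 139 regions were under 100 bp and 177 were over 500 bp. When the Flag day 3 regions were split by width into 10 equal groups, they made up 38.4% of the narrowest group (2 to 238 bp) and 0.111% of the widest (over 920 bp). In sequence covered, they were 1155 kb of 19429 kb, or 5.95% of the Flag day 3 list. Regions found in 1 list alone were narrow in the other lists as well, with median widths of 250 bp in RNase H1(D209N) day 3, 243 bp in Flag day 7 and 246 bp in RNase H1(D209N) day 7. Width comes from the list that chose the regions, so these values are a description. In 39 cases the peak carried a name that stood on another interval too.

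**Figure D2:**
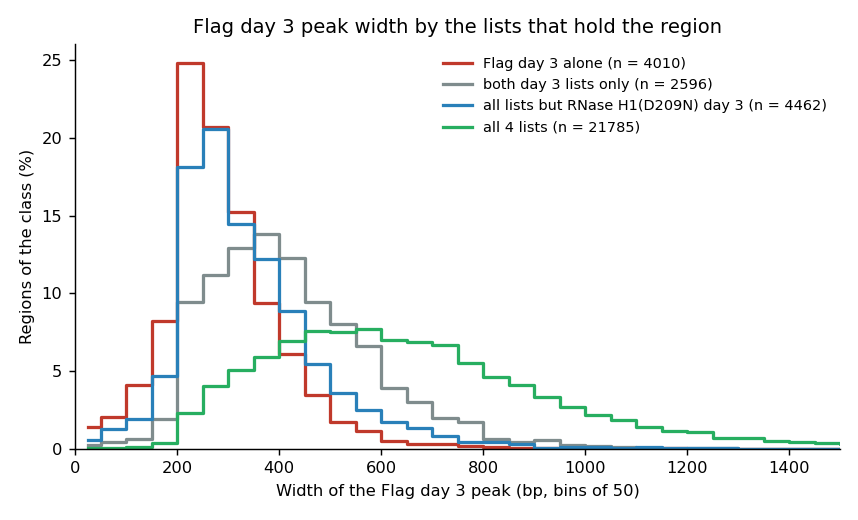
Share of regions (vertical axis, %) by width of the Flag day 3 peak (horizontal axis, bp, bins of 50 bp) for regions in Flag day 3 alone and 3 classes of shared regions. The line of Flag day 3 alone peaks near its median of 271 bp, that of regions of all lists but RNase H1(D209N) day 3 follows closely (308 bp), and regions of all 4 lists spread widely around 617 bp.

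The 10 widest regions lay between 2.06 and 1015 kb from the nearest coding gene end. The widest, chr3:63609999-63611196 (1198 bp), lay 85.6 kb from the nearest coding gene end, that of Plch1, a phospholipase C gene. The next, chr2:51048956-51050093 (1138 bp), lay 80.9 kb from Rnd3. The third, 1105 bp wide, lay 2.06 kb from the ribosomal protein gene Rps9, but only 0.222 kb from a RNase H1(D209N) day 3 peak. Those at Rgs4 (924 bp), Lrp1b (914 bp), Mrpl1 (856 bp), Adamts16 (853 bp), Ift57 (847 bp), Actr3 (844 bp) and Scaf8 (827 bp) completed the 10 widest.

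Most of the regions were separate sites and not edges of peaks in another list. The nearest peak of any other list was a median of 12 kb away, beside 15.6 kb to the nearest other Flag day 3 peak. Only 134 regions (3.34%) had one within 0.2 kb and 403 (10%) within 1 kb, whereas 384 (9.58%) had none within 100 kb. By list, the median distance was 20.1 kb to RNase H1(D209N) day 3, 16.4 kb to Flag day 7 and 17.1 kb to RNase H1(D209N) day 7. These lists differ in length, with 29189 peaks in RNase H1(D209N) day 3, 42439 in Flag day 7 and 40452 in RNase H1(D209N) day 7, and a shorter list has its peaks farther apart. Distances of this kind were of the same order in the other single-list classes, with medians of 10.2 kb for RNase H1(D209N) day 3 alone, 8.48 kb for Flag day 7 alone and 8.7 kb for RNase H1(D209N) day 7 alone.

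At the border of the rule, the region chr17:30525899-30525953 (55 bp) was kept although a Flag day 7 peak lay 1 bp away. The next nearest, chr13:98358460-98358694 (235 bp) near the forkhead gene Foxd1, was 2 bp from a RNase H1(D209N) day 3 peak. On the other side, the Flag day 3 peak chr19:16495545-16495989 (445 bp) near Gna14 was left out because it shared 1 bp with a RNase H1(D209N) day 3 peak. The Flag day 3 peak chr3:53714275-53714335 (61 bp) near Frem2 was left out for the same 1 bp.

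**Figure D3:**
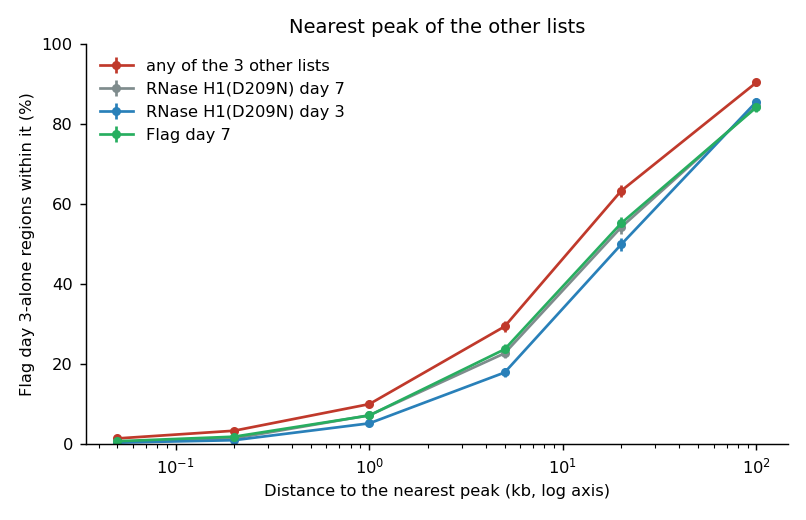
Share of the 4010 regions (vertical axis, %) with a peak of another list within a given distance (horizontal axis, kb, log axis), for each of the 3 other lists and for any of them; bars are 95% Wilson intervals. The line for any list stands at 3.34% at 0.2 kb, 10% at 1 kb and 63.3% at 20 kb, and the line for RNase H1(D209N) day 3 runs below the others up to 20 kb.

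The regions were mostly away from gene ends, and about as many lay inside genes as between them. Only 199 of them (4.96%, interval 4.33 to 5.68%) lay within 1 kb of either end of a coding gene, against 25.1% of all union regions and 32.3% of all Flag day 3 regions. A start site lay within 1 kb of 3.57% of the regions (137 of 3836 on chromosomes with start sites in the table), against 23.4% of union regions. A coding gene body held 50.8% of them (2036 regions), against 62.7% of union regions. Off the ends, 47.3% stood inside genes, against 39.3% of union regions. Between genes stood 47.7% of them, against 35.6% of union regions, and 27.1% (1087 regions) were over 100 kb from any coding gene end, against 13.1%. The median distance to a coding gene end was 35.6 kb, against 12.2 kb for all union regions.

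Among the classes confined to 1 day, the regions lay nearer in position to the day 3 classes than to the day 7 classes. The gene-end share was 4.96%, against 5.47% in RNase H1(D209N) day 3 alone, 2.5% in both day 3 lists only, 11.1% in Flag day 7 alone, 8.93% in RNase H1(D209N) day 7 alone and 15.1% in both day 7 lists only. The difference from Flag day 7 alone was -6.1 percentage points (95% Newcombe interval -7.15 to -5.03), and that from RNase H1(D209N) day 3 alone was -0.504 points (-2.16 to 0.906). For distances over 100 kb, the difference was 16.5 points (15 to 18.1) from Flag day 7 alone and 1.09 points (-1.95 to 4) from RNase H1(D209N) day 3 alone. Both differences from Flag day 7 alone were thus larger than counting error, and neither difference from RNase H1(D209N) day 3 alone was. From both day 3 lists only, the regions differed beyond counting error on both measures, by 2.46 points at gene ends (1.54 to 3.35) and -6.71 points over 100 kb (-9 to -4.44). The position was not particular to classes confined to day 3. Regions of all lists but Flag day 7 had 3.75% at gene ends and 27.2% over 100 kb. The differences were 1.21 points (-0.44 to 2.52) and -0.132 points (-3.55 to 3.11), within counting error. Regions of all lists but RNase H1(D209N) day 7 had 4.32% at gene ends and 22.8% over 100 kb. No test over samples is possible with 1 list per group.

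The gene-end share was also lower when regions with Flag day 3 peaks of like width were compared. Among Flag day 3 regions of 2 to 316 bp, 5.13% of the regions in Flag day 3 alone (138 of 2688) and 13.9% of the other regions (872 of 6282) were at a gene end. Among those of 316 to 474 bp the shares were 5.18% and 20%. Regions of all lists but RNase H1(D209N) day 3, whose Flag day 3 peaks were of similar width, were at a gene end in 23.5% of cases. Gene ends were scored on merged regions, which were wider in that class (median 512 bp, against 271 bp), so shared regions reached farther. Measured from the region centre, the median distance to a coding gene end was 33.1 kb against 16.1 kb in the narrower group, and 39.1 kb against 16.2 kb in the other.

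**Figure D4:**
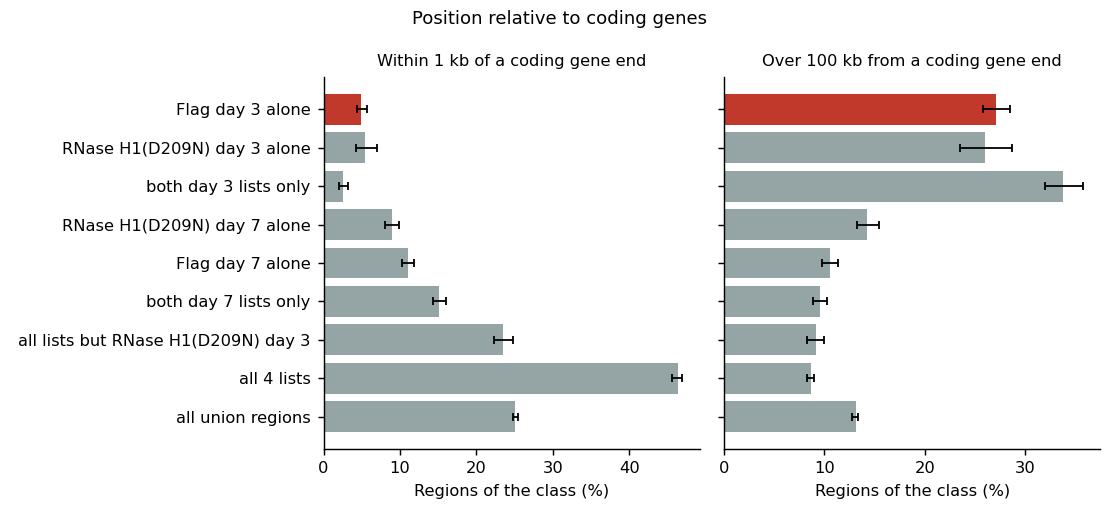
Share of each class of region (horizontal axes, %) within 1 kb of a coding gene end (left panel) and over 100 kb from one (right panel), with 95% Wilson intervals; classes run down the page, Flag day 3 alone on top. Classes confined to day 3 have low shares at gene ends (4.96, 5.47 and 2.5%) and high shares over 100 kb from one (27.1, 26 and 33.8%). Some of the latter lie inside long genes. Regions of all 4 lists have the reverse (46.3 and 8.63%). Regions of all lists but 1 of the day 7 lists are not drawn.

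Where the regions did lie at a gene end, they touched 75 gene ends on the start side and 85 on the finish side, with 52 ends of genes without a start site in the table. Among the widest of these 199 were regions at the finish of the mitochondrial carrier gene Slc25a47 (711 bp) and at the start of the potassium channel gene Kcnd3 (574 bp). The region at the start of Tacr3 (484 bp), a neurokinin receptor gene, lay 199 kb from the nearest peak of another list. Others among the 10 widest were at Vdac1, Usp12, Kcnh7, Ifit3, Sptlc3 and Gm50595, between 458 and 480 bp. Over all 21883 coding genes, 208 had a region at an end, and nothing is read from the count among list genes. Of the genes on the 20 lists described below, 11 had a region at an end. Of these 11, 2 rested on fragments, Id2 with 8 bp and Kdm2b with 34 bp. The other 9 were Bcor, Bmpr2, Ly6a, Mef2a, Nr0b1, Tead3, Tgfbr3, Tubb5 and Yaf2. Of these, the Tgfbr3 region (134 bp) was 0.028 kb from another list's peak, the Bmpr2 region (174 bp) 0.407 kb and the Tubb5 region (360 bp) 0.764 kb.

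Nr0b1, which encodes the orphan nuclear receptor DAX1 of the pluripotency network, had the region farthest from a peak of another list among these 11 genes. Its 2 regions, chrX:86192552-86192793 (242 bp) and chrX:86193487-86193705 (219 bp), were the only union regions assigned to it, and the nearest peak of another list was 364 kb away. They opened a run of 6 consecutive union regions, all in Flag day 3 alone, that spanned 4797 kb of the X chromosome. That run held both regions of Il1rapl1, a synaptic adhesion gene, including one 62 bp from a gene end that overlapped its promoter window.

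Along the chromosomes, the regions took 16.2% of the Flag day 3 regions of the X chromosome (150 of 927, interval 14 to 18.7%) and 14.7% of those of chromosome 18 (12.8 to 16.8%), against 8.31% on chromosome 11 (7.24 to 9.52%). Flag day 3 itself held 75.1% of the union regions of the X chromosome, against 60.1 to 69.2% on the autosomes. Next to a region of the class, 11% of neighbouring union regions were of the class too, against 7.26% of all union regions. Regions of both day 3 lists only made up 9.34% of the neighbours, against 4.7% of all regions, whereas regions of both day 7 lists only made up 9.39%, against 12.9%. Relative to their share of all regions, day 3 classes were thus over-represented beside the regions and the shared day 7 class was under-represented. They were still scattered, since the nearest region of the class was a median of 166 kb away and 3190 of them had no neighbour of the class in the row of union regions.

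Regions were assigned to the nearest coding gene end within 100 kb, which left 1087 without a gene. The 2923 assigned ones reached 2395 of 21883 coding genes (10.9%), or 16.7% of the 14377 genes with any Flag day 3 region. They were 9.43% of the assigned Flag day 3 regions and 6.08% of the assigned union regions. Most genes held 1 (1965 genes), 347 held 2, 69 held 3, 13 held 4 and 1 held 5. Assignment is by distance and says nothing of which gene a region acts on.

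Fer, which encodes a cytoplasmic tyrosine kinase, held the most. Its 5 regions were among 10 in Flag day 3, against 6 in RNase H1(D209N) day 3, 7 in Flag day 7 and 4 in RNase H1(D209N) day 7. Fer and the genes below were ranked by regions of the class, which by definition count toward Flag day 3 only. Their higher Flag day 3 totals follow from that choice and are not a result. Signalling genes with 4 each were Cdk14, a cyclin-dependent kinase gene linked to Wnt signalling, with 4 of 7 Flag day 3 regions, Dock11, an activator of the GTPase Cdc42, with 4 of 8, and the kinase gene Map4k3 with 4 of 13. Chromatin and RNA regulators with 4 each were Tet2, the histone deacetylase gene Hdac4 (4 of 9), Mllt3, a subunit of elongation complexes (4 of 13), and the splicing regulator Mbnl2 (4 of 16). Lurap1l (4 of 8), the pyrophosphate transporter gene Ank (4 of 9), the thromboxane synthase gene Tbxas1 (4 of 9), Tmtc2, which encodes an enzyme of protein mannosylation (4 of 12), and Lekr1 (4 of 17) held as many. The 4 regions of Mllt3 lay between 1.62 and 96 kb from a gene end, with widths of 225 to 767 bp.

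Gpr22, an orphan receptor gene, held 4 of 4, and no other list had a region there. These 4 regions (158 to 281 bp) stood in a row over 37.2 kb, at least 61.2 kb from any peak of another list, and all lay inside the body of the neighbouring gene Cog5, which encodes a Golgi transport protein. Marchf1, a membrane ubiquitin ligase gene, held 3 of 3, and no other list had a region there either. In all, 299 genes had Flag day 3 regions of this class only, and 170 of them had no region in any other list. Of the 299, 23 had at least 2 such regions; among them were Nyap2, the cadherin gene Cdh9, Tspan8 and Iigp1.

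Tet2 encodes an enzyme that oxidises 5-methylcytosine and takes part in demethylation during reprogramming. It held 10 Flag day 3 regions, against 6 in RNase H1(D209N) day 3, 6 in Flag day 7 and 5 in RNase H1(D209N) day 7. The gene was named for its 4 regions of the class, which by definition count toward Flag day 3 only, so the higher total is not a result. The 4 of the class were chr3:133532808-133533043 (236 bp), chr3:133517611-133517852 (242 bp), chr3:133491529-133491670 (142 bp) and chr3:133438151-133438573 (423 bp). Counted from an annotated start site, they lay 11.46, 26.66, 52.79 and 106 kb downstream, the first 3 inside the gene and the last beyond its far end. The peak at the start site was in every list, 971 bp wide in Flag day 3, 840 bp in RNase H1(D209N) day 3, 970 bp in Flag day 7 and 1080 bp in RNase H1(D209N) day 7. The lists also shared the peaks near 20 and 29 kb inside the gene and the one at -56.55 kb, before the start site.

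**Figure D5:**
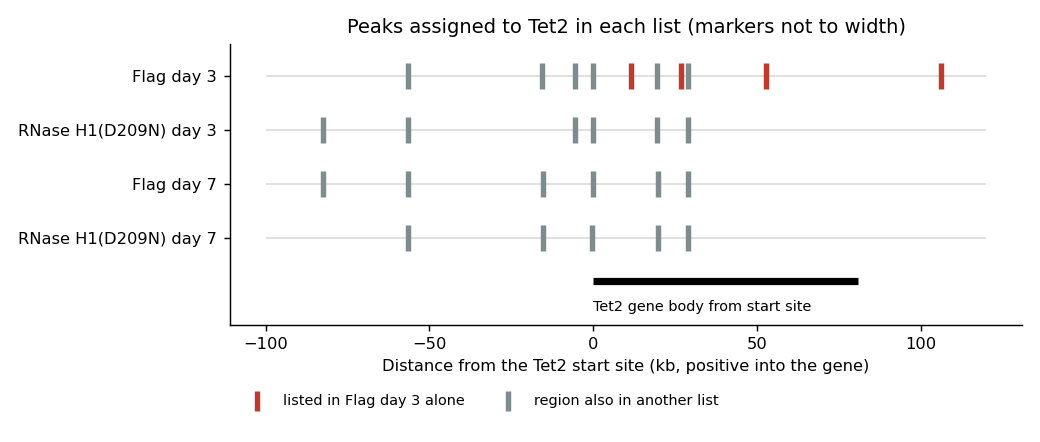
Positions of the peaks assigned to Tet2 in each list (rows) by distance from the start site (horizontal axis, kb, positive into the gene); markers do not show width, and the bar is the gene body. The 4 red marks of Flag day 3 alone stand at 11.46, 26.66, 52.79 and 106 kb, while the marks at the start site and near 20 and 29 kb recur in all 4 lists.

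Pluripotency genes were reached by the class in 9 of 35 cases (25.7%, interval 14.2 to 42.1%). The share was 10.9% over all coding genes and 16.7% over genes with a Flag day 3 region. The interval held 16.7% and lay above 10.9%. The list, like the 10.9%, counts genes with and without a Flag day 3 region. Mesenchymal regulators (29.2%) and endothelial genes (33.3%) had gene shares at least as high. Of the 77 Flag day 3 regions of the pluripotency genes, 15 (19.5%) were of the class, beside 9.43% of all assigned Flag day 3 regions. Apart from Tet2 and Nr0b1, the genes reached included Klf5, a KLF factor gene (2 of 4 Flag day 3 regions), and Zfp42, the Rex1 marker gene (2 of 3). Esrrb, an orphan nuclear receptor gene (1 of 1), and Lin28a, a let-7 inhibitor gene (1 of 1), were also reached. The others were Tbx3 (1 of 3), Tet1 (1 of 5) and Jarid2 (1 of 9). The Esrrb region, chr12:86534297-86534465 (169 bp), lay 12.8 kb from the gene and 77.9 kb from the nearest peak of another list, although Esrrb had other regions at day 7, 2 in Flag and 3 in RNase H1(D209N). The Lin28a region, chr4:134004966-134005192 (227 bp), lay inside the gene. The Pou5f1, Sox2, Klf4 and Nanog loci held no region of the class, and Myc held 1 of 7 Flag day 3 regions. The list was chosen with earlier results of these data known, so its share is a description.

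Genes of the Polycomb complexes, which repress developmental genes through histone marks, were reached in 8 of 28 cases, with 12 of 76 Flag day 3 regions (15.8%, beside 9.43% of all assigned Flag day 3 regions). The gene share was 28.6% (interval 15.3 to 47.1%), beside 10.9% of all coding genes and 16.7% of genes with a Flag day 3 region, and Jarid2 is counted here and among the pluripotency genes. Bcor held 3 of 12, Eed 2 of 6 and Yaf2 2 of 3. In the TGF-beta pathway, which upholds the mesenchymal state, 7 of 20 genes were reached (35%, 18.1 to 56.7%), with 9 of 71 regions (12.7%). This interval lay above 10.9% and 16.7%, but gene shares were not adjusted for the number of regions per gene. These 20 genes held 71 Flag day 3 regions, beside 31013 over the 14377 genes with any. The coreceptor gene Tgfbr3 held 2 of 8 and the corepressor gene Tgif1 2 of 9. Ltbp1, which encodes a protein that stores latent TGF-beta, held 1 of 4. In the BMP pathway 6 of 20 genes were reached (30%, 14.5 to 51.9%), with 7 of 66 regions (10.6%), led by the ligand gene Bmp2 with 2 of 4, then the receptor gene Acvr1 with 1 of 9 and Bmpr2 with 1 of 5.

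In fibroblast and mesenchymal lists, between 8% and 10.9% of the Flag day 3 regions were of the class, beside 9.43% of all assigned Flag day 3 regions. For genes reached, the shares to compare are 10.9% of all coding genes and 16.7% of genes with a Flag day 3 region. Mesenchymal regulators were reached in 7 of 24 cases (29.2%, interval 14.9 to 49.2%), with 8 of 80 regions (10%). Among them were Tcf4 (2 of 16), Foxf2 (1 of 2) and Prrx1 (1 of 3). Fibroblast matrix genes were reached in 6 of 28 cases, with 6 of 75 regions (8%), among them the collagen genes Col12a1, Col1a2 and Col5a2 with 1 each. Fibroblast surface and contractile genes were reached in 4 of 24 cases, with 6 of 55 regions (10.9%), led by Ly6a and Myocd with 2 each, then Nt5e with 1. Epithelial genes, which come on during the mesenchymal-to-epithelial switch, were reached in 3 of 30 cases, with 3 of 60 regions (5%): Esrp2, Marveld3 and Ovol1 held 1 each, and the Esrp2 region lay inside the neighbouring gene Nfatc3. The AP-1 list had 1 of 17 genes, Fos, and 1 of 42 regions (2.38%).

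The remaining lists held between 0 and 4 genes with a region of the class. The shares to compare are 10.9% of all coding genes, 16.7% of genes with a Flag day 3 region and 9.43% of assigned Flag day 3 regions. The list shares count genes with and without a Flag day 3 region, as the 10.9% does. The intervals of these gene shares all held 16.7%, and all but 1 held 10.9%. That of the highest, the endothelial list (33.3%, 13.8 to 60.9%), lay above 10.9% and rested on 4 of 12 genes. TEAD and Hippo genes were reached in 3 of 20 cases (4.35% of 69 regions), R-loop processing genes in 3 of 22 (among them Aqr and Top1, 10% of 30 regions), p53 and senescence genes in 3 of 20 (6.82% of 44) and housekeeping genes in 2 of 20 (7.32% of 41). Among markers of other cell types, endothelial genes were reached in 4 of 12 cases (14.8% of 27 regions), endoderm genes in 2 of 12 (14.3% of 21, with 2 of 5 regions at Foxa2), neural genes in 2 of 15 (7.69% of 26), muscle genes in 2 of 12 (8.7% of 23), trophoblast genes in 1 of 12 (3.7% of 27) and keratinocyte genes in 1 of 12 (9.09% of 11). Macrophage and blood genes were reached in 0 of 12 (0% of 9 regions, interval of the gene share 0 to 24.2%). Nothing is called particular to any list from these counts. Rnaseh1, which encodes RNase H1, had 1 union region, present in every list.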

How the data were processed

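ATAC-seq was analysed from 1 peak list per group. Interval positions are used as the authors deposited them, with no score (unit: other). The submitters' processing notes list Bowtie2 2.3.2, CASAVA and builds named GRCm38.p5 and mm10; how peaks were called, insertions offset and replicates combined is not given in the sources used here. Lists were matched to groups by arm and day in the peak names, all of which carry rep1. Each list also had 3 mitochondrial intervals, which were not used.

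Overlapping or touching intervals were joined, and presence meant at least 1 bp of overlap. Gene ends, promoters and microRNAs came from RefSeq GRCm38.p6 tables; start-site values do not cover chromosome 18, and no genome was used, so distal sequence was not analysed. A gene end was within 1 kb of either annotated end. Intervals are Wilson (scipy 1.17.1) or, for differences, Newcombe (statsmodels 0.14.6), from Python 3.11.15, numpy 2.4.6 and pandas 2.3.3. Interval merging was tested on simulated data.

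The regions, the 20 gene lists and the tests were chosen with earlier results of these data known. Named were the 10 widest regions, the 15 genes with most regions, list genes with a region at an end, the 10 widest at gene ends, up to 3 leading genes per list and regions at the border of the rule; exceptions are marked where they occur, and some items that the rule names are not reported here. Alternatives changed the overlap, width, gene set, window and assignment.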

Additional observations from a re-analysis of the deposited data

How the results depend on the processing

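No paired analysis was possible because each group has 1 peak list, and for the same reason no replicate could be left out. The number of regions (4010) was 3876 or 3607 when a peak within 200 or 1000 bp counted as present, 4983 Flag day 3 peaks when a peak of another list had to cover at least 50% of the peak, and 3858 on autosomes. It was 247 with Flag day 3 peaks at or above the median width and 1710 with that limit in all lists. The gene-end share (4.96%) was 2.87% with a window of 500 bp (22.5% of all union regions), 7.86% with 2 kb (29.2%), 8.98% with all annotated genes (31.3%), 2.02% for wide Flag day 3 peaks and 3.74% when a peak within 1000 bp counted as present; it lay below the share of all union regions in each setting where both were computed. The gene-body share (50.8%) was 58.9% with all annotated genes (71.2% of all union regions) and 44.9% for wide peaks. The number of genes (2395) was 1408 within 20 kb and 2516 by nearest gene body. Of the 15 genes with most regions, the count moved at 13 within 20 kb and at 1 by nearest gene body, Gpr22, which then held 0. With no read counts, depth cannot be set against any value.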

Other observations

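Interferon-response genes were looked at after the Tgtp2 and Ifit3 promoters had been seen among the regions, with a list written at that point. Of its 43 genes 40 were found, and 6 had a region in Flag day 3 alone (15%, interval 7.06 to 29.1%). That interval held both the 10.9% of all coding genes and the 16.7% of genes with a Flag day 3 region. Tgtp2 and Ifit3, which prompted the list, are 2 of the 6, so the count is no evidence about the family. The 6 genes held 8 of the 52 Flag day 3 regions of the list (15.4%), beside 9.43% of all assigned Flag day 3 regions. On chromosome 11 a stretch of 157 kb with the interferon-induced GTPase genes Tgtp1, Tgtp2 and Ifi47, and with Gm12185, held 5 of the regions among 14 union regions. Of all union regions, 7.26% were of the class. The stretch was not exceptional, since other stretches of up to 200 kb also held 5. They stood among 10 union regions at Mllt3 and among 12 near Hs2st1. Ifi47 held 2 of 4 Flag day 3 regions, both inside the gene (453 and 382 bp). Iigp1, an immunity-related GTPase gene on chromosome 18, held 2 of 2, inside the gene and at least 56.5 kb from any peak of another list. Ifit3 and Tgtp2 each held 1 of 1, and neither gene had a region in the other 3 lists. Tgtp1 and Gbp6 held 1 of 3 each. The genes of this family lie in clusters of near-identical copies, and how reads shared by copies were placed is not given in the sources used here.

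The promoter of Klf17, a KLF factor gene, was touched by a region of 216 bp that lay 63.9 kb from the nearest peak of another list. The Cdh9 promoter, of a cadherin gene, was touched by a region of 190 bp that lay 247 kb from one.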
